A study of Arabidopsis thaliana with 24 samples.

Results

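The genes described here are 38 nuclear genes of Arabidopsis thaliana that code for proteins of the plastid ribosome. They were chosen by locus, each as the array feature whose identifier starts with a listed locus, and each of the 38 loci had 1 feature among the 30386 gene features of the array. For 21 of them the reference gene table names the protein: 14 proteins of the large subunit (L1, L4, L9, L11, L12-A, L12-C, L15, L21, L24, L27, L28, L35, PSRP5 and PSRP6) and 7 of the small subunit (S1, S9, S17, S20, PSRP2, PSRP3/1 and PSRP4). The other 17 carry no protein name in that table and are called here by their locus or gene symbol alone.

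Wild-type seedlings of the accession Col-0 were grown in liquid culture under constant light and then given 150 mM sucrose or, as the osmotic control, 150 mM sorbitol for 6 h. Flasks stayed in the light or were wrapped in foil, which gave 4 treatments: dark sucrose, dark control, light sucrose and light control. From each of the 12 cultures (3 per treatment, numbered 7, 8 and 9), RNA of a small-polysome fraction of a sucrose gradient and total RNA of the same extract were each hybridised to 1 tiling array, giving 24 arrays in 8 groups of 3. The labels give the seedlings' age as 7 days, and the study's methods give another age. Each culture pooled many whole seedlings, so that a lower level from fewer cells of a type and one from less RNA per cell cannot be told apart.

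The plastid ribosome resembles that of bacteria and translates the messages of the plastid's own genome, many of which code for the photosynthetic machinery. Its proteins are of mixed origin: some are encoded in the plastid, but most are encoded in the nucleus, translated on cytosolic ribosomes and imported. The polysomal RNA of the genes described here therefore comes from cytosolic ribosomes. Plastid-specific ribosomal proteins (PSRP) were named for having no counterpart in the bacterial ribosome.

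Values are log2 intensities that the authors normalised across arrays, and the median over all features lay between 5.92 and 6.06 on every array. All 38 genes lay above the array's median except 1 gene on each dark sucrose array of replicate 9: AT4G17560 in polysomal RNA at 5.52 and PSRP2 in total RNA at 5.35. A gene is said to have risen or fallen where the limma fit over all features and 24 arrays gave an adjusted p under 0.05 (Benjamini-Hochberg, per comparison).

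The arrays of replicate 9 stood apart for these genes. Averaged over the 38 genes, the deviation of the replicate 9 array from its group mean was -0.58 in dark sucrose polysomal RNA and between -0.37 and -0.11 on 6 other arrays, against 0.01 in light control polysomal RNA. Much of the spread between arrays was thus shared by the genes, and the counts of the 38 genes called in each comparison are given also with each replicate number left out. Markers of shoot (RBCS1A, LHCB1.3, RCA) and root (PYK10, CASP1, IRT1) were both present in the total RNA. The log2 of the summed level of the 3 shoot markers lay between 12.49 and 13.08 in light sucrose, against 13.59 to 13.80 in light control, and between 12.58 and 13.09 in dark sucrose, against 13.15 to 13.56 in dark control. That of the 3 root markers lay between 11.91 and 12.32 in light sucrose, against 12.40 to 12.80 in light control, and between 11.11 and 11.57 in dark sucrose, against 11.78 to 12.32 in dark control. Both sums were lower with sucrose in the same cultures as the genes below, and their part in the results was not tested. RCA and PYK10 had the highest levels and dominate the sums. IRT1 alone did not follow in darkness, with 6.17, 6.18 and 7.52 in dark sucrose total RNA, against 6.01, 6.05 and 7.55 in dark control (sorted values). In light total RNA the IRT1 groups overlapped. Sorted, the values were 5.84, 6.93 and 7.00 in light sucrose, against 5.47, 8.57 and 8.88 in light control. The study reports genes of photosynthesis among those lowered by sucrose in light and darkness.

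**Figure D1:**
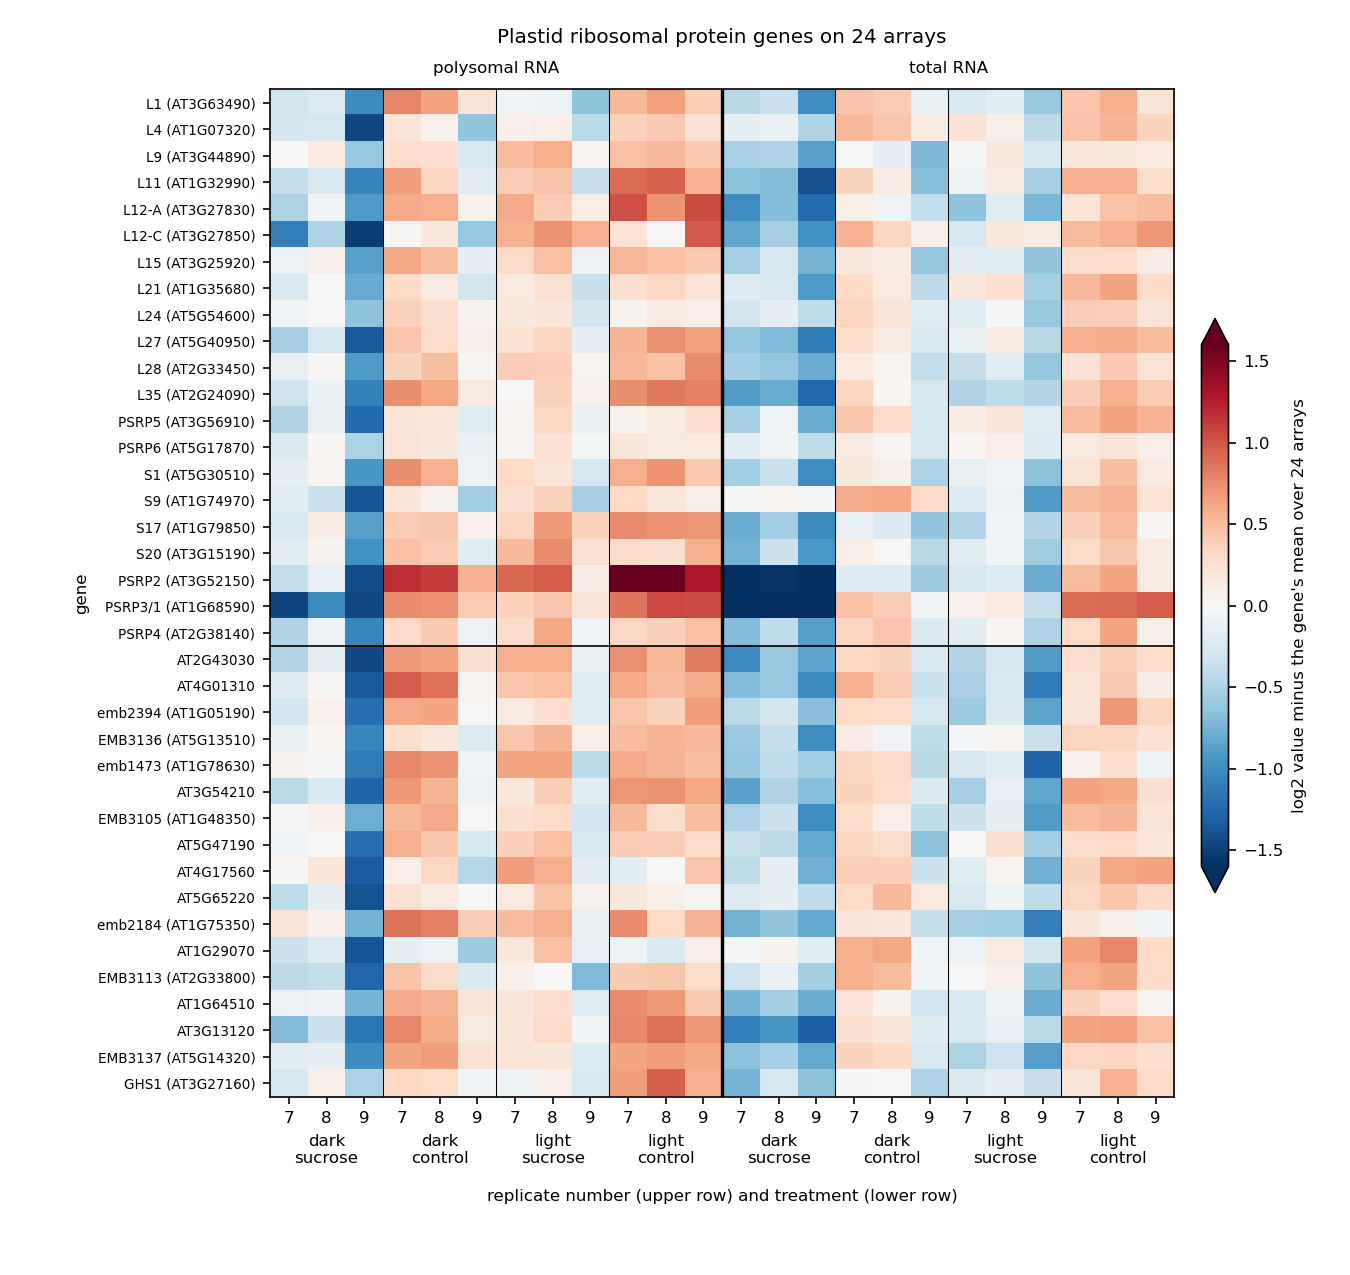
Heat map of the 38 genes (rows) on 24 arrays (columns), coloured by the log2 value minus the gene's mean over all arrays, with genes whose protein the reference table names above the black line. Sucrose columns are bluer than their control columns in most rows, and the replicate 9 column of dark sucrose polysomal RNA is the bluest of its group.

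Sucrose in the light lowered the total RNA of these genes as a group. All 38 log2 differences between light sucrose and light control were negative, with a median of -0.67 and quartiles of -0.85 and -0.57, beside a median of 0.02 over all features. Of the 38 genes, 20 fell and none rose, where 12.8% of all features fell. For 36 genes the 3 light sucrose values all lay below the 3 light control values, which was so for 18.3% of all features. A fit that blocked on the replicate number called 34 genes. Leaving out replicate 9 gave 34 as well, leaving out replicate 8 gave 7 and leaving out replicate 7 gave 2. The share of all features called, up or down, was 28.5%. It was 33.8% in the blocked fit and 32.3%, 15.6% and 15.6% without replicates 9, 8 and 7.

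The largest falls were in 2 genes without a protein name in the table and in a plastid-specific protein. AT3G54210 had 8.82, 9.22 and 8.52 in light sucrose total RNA, against 10.00, 9.97 and 9.61 in light control total RNA. The groups did not overlap, and the level was 2.01-fold lower with sucrose (log2 difference -1.01 ± 0.22, SD of 3 differences, limma adjusted p = 0.00436). The gene emb2394, whose symbol stands for an embryo-defective mutant, had 7.82, 8.16 and 7.55 in light sucrose, against 8.60, 9.09 and 8.74 in light control. It was lower in each of the 3 sucrose cultures, 1.95-fold on average (limma adjusted p = 0.00772). PSRP3/1, a protein of the small subunit, had 10.57, 10.66 and 10.13 in light sucrose, against 11.39, 11.40 and 11.47 in light control, a 1.96-fold lower level (-0.97 ± 0.33, limma adjusted p = 6.51e-05). Its control values lay close together and well above the sucrose values. The other genes that fell had log2 differences between -0.91 (L12-A and L35) and -0.60 (GHS1).

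Sucrose in darkness lowered total RNA of about as many genes, with a wider range of sizes. All 38 differences between dark sucrose and dark control were negative, with a median of -0.61, from -2.06 to -0.19. Of the 38 genes, 18 fell, where 16.2% of all features fell, and for 21 genes the groups did not overlap, against 20.6% of all features. The blocked fit called 35. With replicate 9 left out 37 genes fell, with replicate 8 left out 8, and with replicate 7 left out 4. Of all features 31.7% were called, up or down. The share was 36.9% in the blocked fit and 35.8%, 20.1% and 19.7% without replicates 9, 8 and 7.

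PSRP3/1 and PSRP2, both of the small subunit, fell furthest. PSRP3/1 had 8.68, 8.75 and 8.69 in dark sucrose total RNA, against 10.97, 10.89 and 10.46 in dark control total RNA. The dark sucrose values were the lowest of the 4 treatments and nearly equal, 4.18-fold below dark control (-2.06 ± 0.27, limma adjusted p = 3.06e-09). PSRP2, a protein with RNA-recognition motifs, had 6.69, 6.91 and 5.35 in dark sucrose, against 8.27, 8.26 and 7.89 in dark control. It was 3.54-fold lower (-1.83 ± 0.63, limma adjusted p = 3.49e-04), and the replicate 9 value of dark sucrose lay far below those of replicates 7 and 8. AT3G13120 had 9.90, 10.07 and 9.70 in dark sucrose, against 11.26, 11.20 and 10.80 in dark control, a 2.29-fold lower level (-1.20 ± 0.14, limma adjusted p = 2.99e-05). For this gene the difference was nearly the same in each replicate number.

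Across the 38 genes, the sizes of the light and the dark sucrose effects on total RNA, which share no arrays, had a Pearson correlation of 0.56 and a Spearman correlation of 0.59, against 0.67 and 0.58 over all features. The genes are not independent of one another on these arrays, so no p is given. The 20 genes that fell in the light and the 18 that fell in darkness had 14 in common, where 2808 of the 30386 features fell in both. The 14 included L1, L12-A, L27, L28, L35, PSRP3/1 and AT3G54210.

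**Figure D2:**
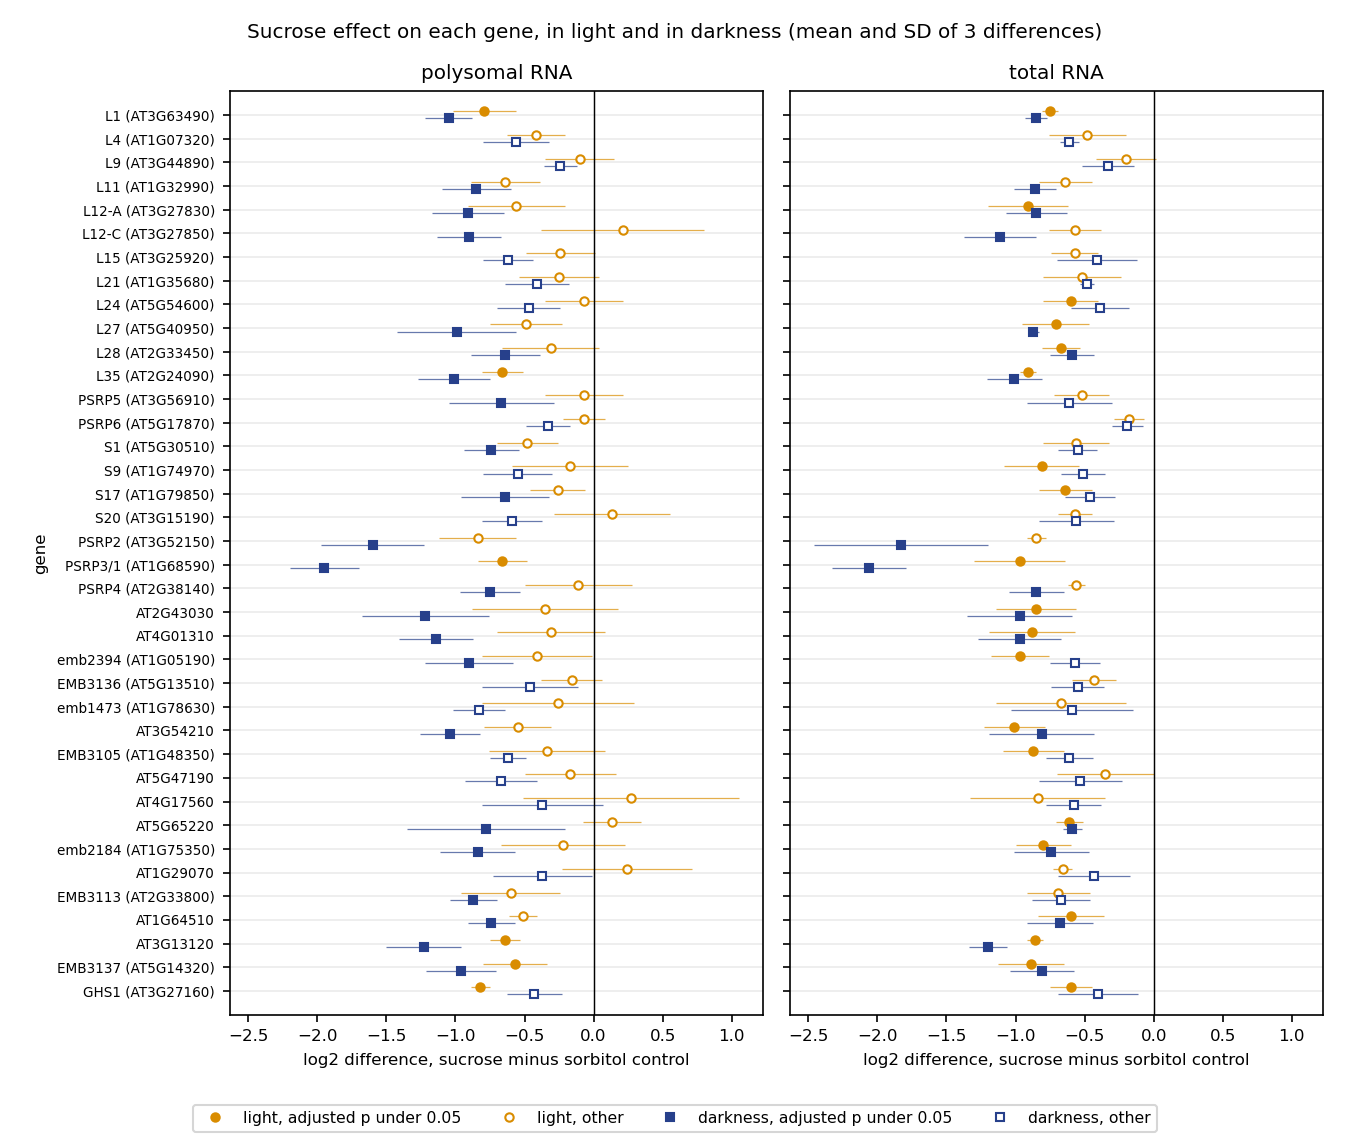
Log2 difference of sucrose minus sorbitol control for each gene (rows), in polysomal RNA (left) and total RNA (right), in light (orange circles) and darkness (blue squares), as mean and SD of 3 differences; filled symbols passed an adjusted p of 0.05. In total RNA all points lie left of 0, and the blue squares of PSRP2 and PSRP3/1 stand apart from the other genes at -1.83 and -2.06.

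Whether the sucrose effect differed between light and darkness was tested as the effect in light minus the effect in darkness. In total RNA the median of this difference over the 38 genes was -0.01, with medians of 0.32, 0.06 and -0.36 in replicates 7, 8 and 9. Only 1 gene passed the test, PSRP3/1, where 4.09% of all features were positive and passed. The sucrose effect on PSRP3/1 was -0.97 in light and -2.06 in darkness, a difference of 1.10 ± 0.59 (SD of 3 differences, limma adjusted p = 0.00334). It had the same sign in all 3 replicate numbers, and its adjusted p was 5.93e-04 with replicate 9 left out, 0.156 with replicate 8 left out and 0.218 with replicate 7 left out. PSRP2 had a difference of nearly the same size, 0.98 ± 0.58, that did not pass (limma adjusted p = 0.26, and 0.0158 with the replicate block). Of the 38 genes, 2 passed with the block, 3 when replicate 9 was left out and 0 when replicate 7 or 8 was. Over all features 8.94% passed, up or down. With the block it was 14.7%, and without replicates 9, 8 and 7 it was 14.7%, 1.1% and 1.31%.

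In polysomal RNA fewer of these genes fell with sucrose in the light. The median difference between light sucrose and light control was -0.31, with quartiles of -0.56 and -0.12, and 33 of the 38 differences were negative. Replicates 7, 8 and 9 had medians of -0.24, -0.03 and -0.68. Of the 38 genes 6 fell, where 12.8% of all features fell, a share close to that background. The 6 were GHS1, L1, PSRP3/1, L35, AT3G13120 and EMB3137, and no overlap of the groups was seen for 19 genes, against 18.4% of all features. The blocked fit called 15, and 2 were called when replicate 7 or 8 was left out. Without replicate 9, 14 genes passed, of which 12 were lower and AT4G17560 (0.71) and AT1G29070 (0.48) higher. The share of all features called, up or down, was 31.3%. It was 36.4% in the blocked fit and 35%, 17.7% and 18.7% without replicates 9, 8 and 7.

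GHS1, named for the glucose-hypersensitive growth of its mutant, had the largest of these falls. Its polysomal values were 9.83, 9.99 and 9.66 in light sucrose, against 10.58, 10.87 and 10.49 in light control, a 1.77-fold lower level (-0.82 ± 0.07, limma adjusted p = 9.94e-04). The groups lay well apart, and the 3 replicate differences were almost equal. L1, which in bacteria forms the stalk at the exit site of the large subunit, had 10.68, 10.65 and 10.09 in light sucrose, against 11.26, 11.39 and 11.12 in light control, a 1.72-fold lower level (limma adjusted p = 0.0117). L35, a small protein of the large subunit, had 8.75, 9.11 and 8.81 in light sucrose, against 9.49, 9.59 and 9.55 in light control (1.58-fold lower, limma adjusted p = 0.0184). PSRP3/1 had 10.87, 10.93 and 10.70, against 11.36, 11.57 and 11.55 (1.58-fold lower, limma adjusted p = 0.00235). None of these groups overlapped. PSRP2 was not called, although its mean was 9.14 in light sucrose and 9.99 in light control, slightly further apart than the means of GHS1.

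In darkness the polysomal RNA of these genes fell about as far as their total RNA. The median difference between dark sucrose and dark control was -0.75, all 38 differences were negative in each replicate number, and 23 genes fell, where 15.1% of all features fell. For 19 genes the groups did not overlap, against 19.2% of all features. The blocked fit called 35. Leaving out replicate 9 gave 32, replicate 8 gave 15 and replicate 7 gave 6. Of all features 31.4% were called, up or down. The share was 36.5% in the blocked fit and 36.1%, 18.8% and 18.6% without replicates 9, 8 and 7. PSRP3/1 had 9.03, 9.48 and 9.05 in dark sucrose, against 11.26, 11.23 and 10.90 in dark control (3.85-fold lower, limma adjusted p = 7.09e-09). PSRP2 had 8.08, 8.34 and 7.06, against 9.66, 9.58 and 9.04 (3.03-fold lower, limma adjusted p = 0.00125). AT3G13120 had 10.31, 10.66 and 9.85, against 11.77, 11.59 and 11.15 (2.35-fold lower, limma adjusted p = 2.20e-05). These were the genes that fell furthest in total RNA as well, and each kept a gap between its groups.

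The sucrose effect on polysomal RNA was less negative in light than in darkness for 37 of the 38 genes, with a median difference of 0.39, and it was so in all 3 replicate numbers for 33 genes, against 29% of all features. The median was 0.56, 0.4 and 0.38 in replicates 7, 8 and 9. Only PSRP3/1 passed the test of the difference (1.29 ± 0.40, limma adjusted p = 7.47e-04), where 6.33% of all features were positive and passed. Its adjusted p was 5.83e-04 when replicate 9 was left out, 0.0411 when replicate 8 was and 0.117 when replicate 7 was. Of the 38 genes, 8 passed in the blocked fit, and 14, 1 and 0 when replicates 9, 8 and 7 were left out in turn. Over all features 11.5% passed, up or down. In the blocked fit it was 17.8%, and without replicates 9, 8 and 7 it was 15.2%, 1.48% and 1.59%. Effects in the light and in darkness on polysomal RNA had a Pearson correlation of 0.57 and a Spearman correlation of 0.63 across the 38 genes, against 0.65 and 0.57 over all features. Of the 38 genes 5 fell in both, where 2697 of the 30386 features did so.

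**Figure D3:**
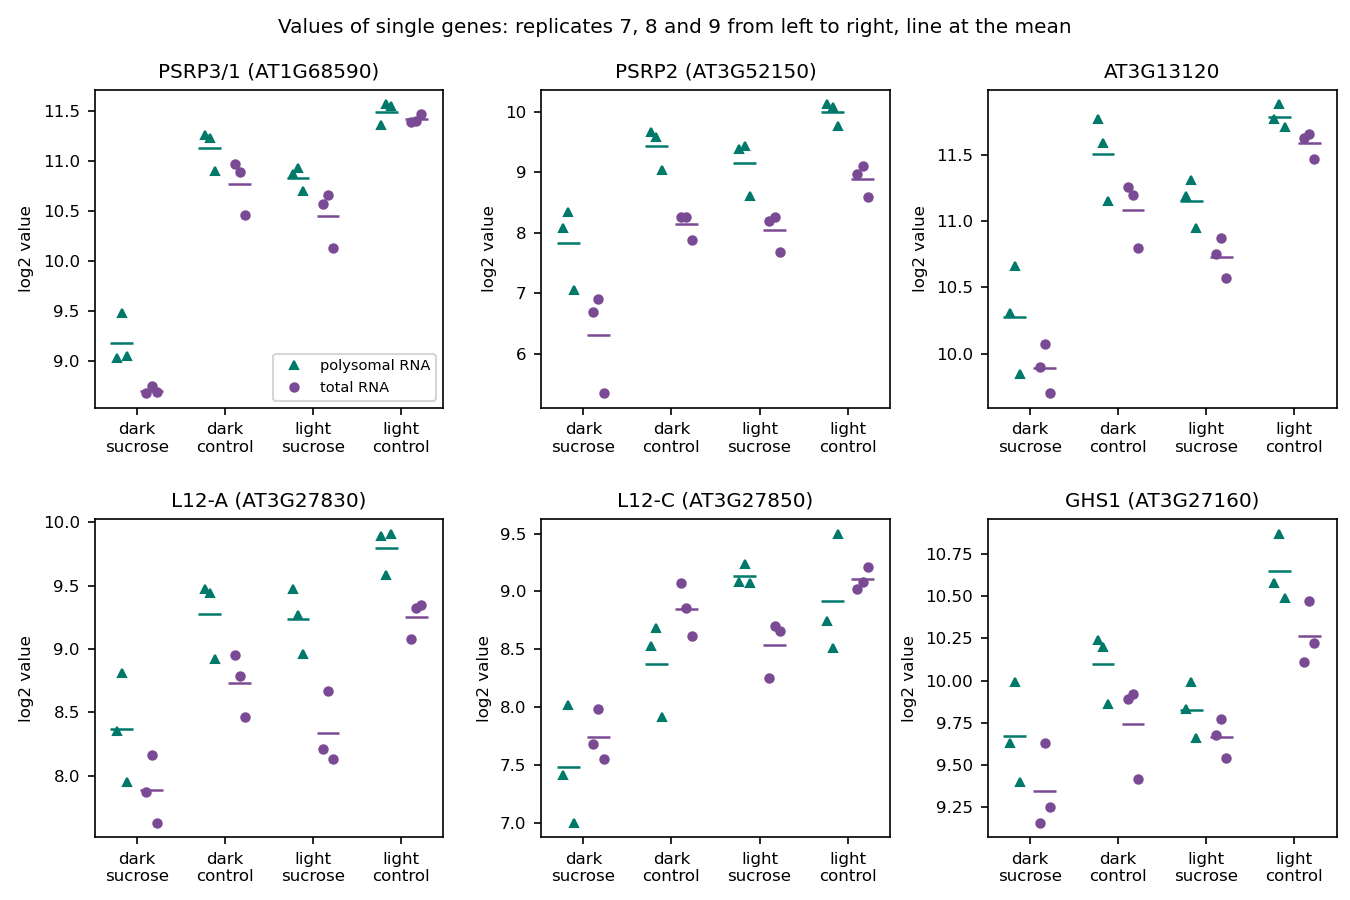
Log2 values of 6 genes in each array, as polysomal RNA (green triangles) and total RNA (purple circles), for replicates 7, 8 and 9 from left to right within each treatment, with a line at each mean. PSRP3/1 in dark sucrose lies near 8.7 in total RNA, more than 1 below every other treatment, and L12-C has its polysomal mean above its total mean only in light sucrose.

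Darkness without sucrose had little effect that passed the test. In total RNA, dark control lay below light control for 37 of the 38 genes, with a median of -0.35 (-0.07, -0.28 and -0.61 in replicates 7, 8 and 9). For 13 genes the 3 dark control values all lay below the 3 light control values, which was so for 11.9% of all features. In 23 genes all 3 replicate differences were negative, against 19.9% of all features. Of the 38 genes 1 fell, where 4.35% of all features fell. That gene was PSRP3/1, whose values given above were 1.57-fold lower in dark control than in light control (-0.65 ± 0.32, limma adjusted p = 0.0103), with no overlap. Leaving out replicate 9 gave 3, and leaving out replicate 7 or 8 gave 0. Of all features 10% were called, up or down, and 11.9%, 1.16% and 2.12% without replicates 9, 8 and 7. In polysomal RNA the median was -0.20 and limma called none of the 38 genes, where 3.96% of all features fell at an adjusted p under 0.05. At an unadjusted p under 0.05 there were 4 genes (L12-A, L12-C, GHS1 and PSRP3/1). The share of all features at that unadjusted threshold is not given here. For 10 genes dark control lay wholly below light control, against 13.6% of all features. The blocked fit called 5, where it called 17.4% of all features, up or down, against 11.1% without the block. The median over the 38 genes was 0.00 in replicates 7 and 8 and -0.58 in replicate 9, and without replicate 9 the median was -0.01 and 1 gene fell.

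With sucrose in the medium, the effect of darkness was set out as dark sucrose against light sucrose. In total RNA 6 genes fell, where 14.6% of all features fell, a share close to that background. The median was -0.30, with 34 of the 38 differences negative and 4 positive. The 6 were PSRP3/1 (3.36-fold lower, limma adjusted p = 9.78e-08), PSRP2 (3.32-fold, 8.62e-04), AT3G13120 (1.79-fold, 0.00168), L12-C (-0.80), L27 (-0.67) and L9 (-0.59). For the first 3 of them the light sucrose values were 10.57, 10.66 and 10.13 (PSRP3/1), 8.20, 8.26 and 7.68 (PSRP2), and 10.75, 10.87 and 10.57 (AT3G13120), all above the dark sucrose values given above. With replicate 9 left out 15 genes fell, with replicate 8 left out 3 and with replicate 7 left out 2. Of all features 27.3% were called, up or down, and 28.8%, 14.6% and 14.1% without replicates 9, 8 and 7. In polysomal RNA 17 genes fell, where 15.1% of all features fell, all 38 differences were negative, and the median was -0.66. Leaving out replicates 9, 8 and 7 in turn gave 30, 10 and 2. For all features the share called, up or down, was 28.5%, and 30%, 15.7% and 15.2% in the same order.

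PSRP3/1 and L12-C had the largest of the polysomal falls, of the same size to 2 decimals, followed by PSRP2. PSRP3/1 had 9.03, 9.48 and 9.05 in dark sucrose polysomal RNA, against 10.87, 10.93 and 10.70 in light sucrose polysomal RNA (-1.65 ± 0.20, limma adjusted p = 1.89e-07). PSRP2 had 8.08, 8.34 and 7.06, against 9.39, 9.44 and 8.61 (2.49-fold lower, limma adjusted p = 0.00722). In both genes every dark sucrose value lay below every light sucrose value.

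L12 forms the mobile stalk of the large subunit which, in bacteria, recruits the factors of initiation and elongation. The 2 genes L12-A and L12-C lie close together on chromosome 3, on the plus strand at 10318505 to 10319432 and at 10324839 to 10325713 in the coordinates of the feature identifiers, whose genome build is not given in the sources used here. L12-C had 7.41, 8.02 and 7.00 in dark sucrose polysomal RNA, against 9.08, 9.24 and 9.07 in light sucrose polysomal RNA. It was 3.14-fold lower (-1.65 ± 0.43, limma adjusted p = 4.94e-05), with a gap of more than 1 between the groups. L12-A had 8.35, 8.81 and 7.95 in dark sucrose, against 9.47, 9.27 and 8.96 in light sucrose (1.82-fold lower, limma adjusted p = 0.00442).

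In the light the pair had different values. L12-A fell with sucrose in total RNA, with 8.21, 8.67 and 8.13 in light sucrose and 9.08, 9.32 and 9.35 in light control (limma adjusted p = 0.00276). L12-C had 8.25, 8.70 and 8.66 in light sucrose and 9.02, 9.08 and 9.21 in light control, a difference of -0.57 that did not pass (limma adjusted p = 0.109). In polysomal RNA L12-C had 9.08, 9.24 and 9.07 in light sucrose, against a light control group spread over 8.74, 8.51 and 9.50 (0.21 ± 0.59, limma adjusted p = 0.623), whereas L12-A had 9.89, 9.58 and 9.91 in light control and a difference of -0.56 (limma adjusted p = 0.0554). The difference between the 2 genes was not tested. In dark sucrose total RNA L12-A had 7.87, 8.16 and 7.63, against 8.95, 8.79 and 8.46 in dark control (1.80-fold lower, limma adjusted p = 0.00418). L12-C there had 7.68, 7.98 and 7.55, against 9.07, 8.86 and 8.61 (2.16-fold lower, limma adjusted p = 0.00176). Both fell in darkness, in polysomal RNA too (-0.91 and -0.90).

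Polysomal occupancy is taken here as the log2 polysomal value minus the log2 total value of the same culture. It is a relative measure, since the arrays were normalised to similar medians and only the small-polysome fraction is used. The deposited values do not share 1 distribution: lower quartiles were 4.05 to 4.25 on polysomal arrays and 4.25 to 4.43 on total arrays. PSRP2 had the highest mean occupancy of the 38 genes in each of the 4 treatments. Its 3 cultures had 1.40, 1.43 and 1.70 in dark sucrose, 1.39, 1.32 and 1.15 in dark control, 1.19, 1.18 and 0.93 in light sucrose, and 1.13, 0.98 and 1.17 in light control. The polysomal level was thus 2.85-fold above the total level in dark sucrose (limma adjusted p = 0.00628), 2.44-fold in dark control (0.0128), 2.14-fold in light sucrose (0.0445) and 2.14-fold in light control (0.0437). With quantile normalisation PSRP2 did not pass in light sucrose (limma adjusted p = 0.0948) or light control (0.0603), and in dark sucrose it did not with the arrays of the groups compared alone (0.108). It also did not pass in any treatment when replicate 7 or 8 was left out (0.0896 to 0.349).

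Among the 38 genes, polysomal RNA was higher than total RNA for 2 genes in dark sucrose (10.0% of all features), 3 in dark control (12.1%), 8 in light sucrose (8.81%) and 1 in light control (7.68%), and lower for none. The medians over the 38 genes were 0.19, 0.34, 0.48 and 0.14 in the same order of treatments. The 2 RNAs of a culture varied together. Blocking on the replicate number called 9, 15, 22 and 6 genes higher, and 3, 3, 0 and 1 lower. A random effect of culture called 10, 12, 24 and 4 higher, and 2, 3, 0 and 1 lower. Leaving out replicate 9 called 19, 19, 23 and 7 genes, and leaving out replicate 7 or 8 called 0 in each treatment. The share of all features called, up or down, was 17.6%, 23.2%, 13.2% and 13.4%. It was 24.6%, 30.4%, 18.9% and 19% with the replicate block, and 34.3%, 40.3%, 26.8% and 26% with the culture effect. Without replicate 9 it was 23.8%, 26.7%, 14.3% and 16.2%, and without replicate 7 or 8 between 1.83% and 5.31%. In dark sucrose the median occupancy was 0.41 and 0.40 in replicates 7 and 8 and -0.12 in replicate 9.

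In dark sucrose the gene besides PSRP2 was PSRP3/1, with 0.35, 0.73 and 0.35 (mean 0.48, limma adjusted p = 0.04, and 0.165 with quantile normalisation). In dark control emb2184, another embryo-defective locus, had 0.65, 0.63 and 0.78 (mean 0.69, limma adjusted p = 0.0413), and S17, which in bacteria binds ribosomal RNA early in assembly, had 0.52, 0.66 and 0.70 (mean 0.63, limma adjusted p = 0.0345). In light sucrose emb2184 had 1.02, 1.12 and 0.97 (mean 1.04, limma adjusted p = 0.00585), AT2G43030 had 1.04, 0.84 and 0.78 (limma adjusted p = 0.0303) and L12-A had 1.26, 0.60 and 0.82 (limma adjusted p = 0.00873). All these values were positive in each culture. S17, S20, L28 and EMB3137 were also higher in polysomal than in total RNA in light sucrose, with means between 0.64 and 0.80.

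**Figure D4:**
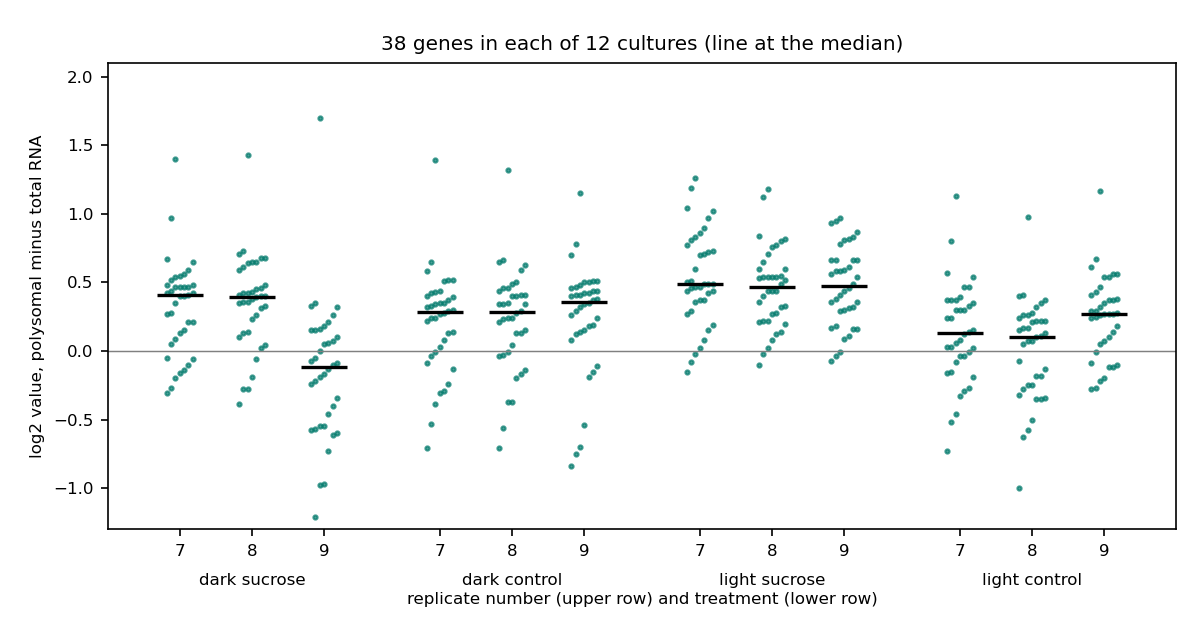
Polysomal minus total log2 value of the 38 genes (points) in each of the 12 cultures, with a line at the median of each culture. The 3 light sucrose medians lie at 0.49, 0.47 and 0.47, those of light control between 0.11 and 0.27, and the replicate 9 culture of dark sucrose lies at -0.12, apart from 0.41 and 0.40 in replicates 7 and 8.

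Sucrose in the light was accompanied by a higher occupancy of most of these genes, but no single gene passed the test. The change in occupancy was positive for 36 of the 38 genes with a median of 0.34, beside -0.01 over all features. For 27 genes the 3 light sucrose cultures all lay above the 3 light control cultures, which was so for 11.6% of all features, and in 30 genes all 3 replicate differences were positive, against 19.6% of all features. None of the 38 genes was called by limma, where 0.346% of all features were positive and called. At an unadjusted p under 0.05 there were 4 genes, all upward, and the share of all features at that threshold is not given here. That fit does not pair the 2 RNAs of a culture. With the culture as a random block none of the 38 was called either, where 2.19% of all features were, up or down. Without replicate 9, 3 genes passed: AT4G17560 (1.27, limma adjusted p = 0.0131), AT1G29070 (1.16, 0.012) and S9 (0.73, 0.0377). In that setting 1.14% of all features passed, up or down. Since total RNA is part of both the total RNA effect and the occupancy, a gene with an error in its total value moves in both.

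The largest occupancy changes in the light, chosen after their values were seen, were those of AT4G17560 and AT1G29070. AT4G17560 had 0.86, 0.54 and 0.59 in light sucrose cultures, against -0.52, -0.63 and -0.20 in light control cultures (1.11, limma adjusted p = 0.63). AT1G29070 had 0.27, 0.32 and 0.17 in light sucrose, against -0.73, -1.0 and -0.22 in light control (0.91, limma adjusted p = 0.51). In both genes the polysomal value was above the total value in every light sucrose culture and below it in every light control culture, and neither change passed. At the other end, GHS1 had 0.15, 0.22 and 0.11 in light sucrose, against 0.47, 0.40 and 0.27 in light control (-0.22), the most negative of the 38 genes and without overlap. Its limma adjusted p was 1.

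In the other comparisons of occupancy limma called none of the 38 genes. In dark sucrose against dark control the median change was -0.06 (0.13, 0.10 and -0.46 in replicates 7, 8 and 9) and no gene had an unadjusted p under 0.05. In dark control against light control the median was 0.12, with no gene under 0.05. For 13 genes the dark control cultures all lay above the light control cultures and for 2 all below, against 8.85% and 8.29% of all features. In dark sucrose against light sucrose the median was -0.34, with 4 genes under 0.05, all lower, and the replicate medians were -0.14, -0.09 and -0.63. For 17 genes the dark sucrose cultures all lay below the light sucrose cultures and for 1 all above, against 7.75% and 8.12% of all features. The light effect on occupancy minus the dark effect had a median of 0.41, with 35 of 38 genes positive and 1 under 0.05 before adjustment. The share of all features at an unadjusted p under 0.05 is not given for these counts, so they are not read against a background.

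The 5 plastid-specific proteins did not move alike. PSRP6, of the large subunit, had 13.04, 13.15 and 12.81 in dark sucrose total RNA, 13.35, 13.26 and 12.95 in dark control, 13.25, 13.33 and 13.02 in light sucrose and 13.38, 13.43 and 13.33 in light control. Its sucrose difference was -0.19 in darkness and -0.18 in light, the smallest of the 38 genes in size in both, and it passed no test of sucrose. PSRP5, also of the large subunit, had 10.18, 10.65 and 9.92 in dark sucrose total RNA, against 11.14, 11.02 and 10.43 in dark control (-0.61, limma adjusted p = 0.0583). In the light it had 10.83, 10.92 and 10.51 with sucrose, against 11.22, 11.35 and 11.26 in control (-0.52, limma adjusted p = 0.117). PSRP4, of the small subunit, had 7.94, 8.23 and 7.76 in dark sucrose total RNA, against 8.98, 9.08 and 8.40 in dark control (-0.85, limma adjusted p = 0.0082), and 8.45, 8.67 and 8.14 in light sucrose, against 8.95, 9.27 and 8.73 in light control (-0.56, limma adjusted p = 0.0845). Of the 5, PSRP3/1, PSRP2 and PSRP4 thus fell in total RNA in darkness, and PSRP3/1 alone did so in light. In polysomal RNA PSRP3/1 fell in light, and PSRP2, PSRP3/1, PSRP4 and PSRP5 in darkness.

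S1, which in bacteria binds the messenger RNA at initiation, had 8.73, 8.92 and 8.28 in dark sucrose total RNA, against 9.44, 9.37 and 8.77 in dark control (-0.55, limma adjusted p = 0.133). In the light it had 9.16, 9.22 and 8.62 with sucrose, against 9.49, 9.76 and 9.43 in control (-0.56, limma adjusted p = 0.135). It fell in dark sucrose polysomal RNA, with 9.13, 9.32 and 8.34 against 10.02, 9.83 and 9.18 in dark control (-0.74, limma adjusted p = 0.0386), where the groups overlapped. GHS1 fell in total RNA in the light, with 9.68, 9.77 and 9.54 in sucrose against 10.11, 10.47 and 10.22 in control (1.51-fold lower, limma adjusted p = 0.0132). In darkness it had 9.16, 9.63 and 9.25 with sucrose, against 9.89, 9.92 and 9.42 in control, an overlap and a difference of -0.40 that did not pass (limma adjusted p = 0.0976).

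By subunit, the counts are set beside the 12.8% of all features that fell in total RNA in light and the 16.2% in darkness. Of the 14 genes named as large-subunit proteins 6 fell in total RNA in light and 7 in darkness, with medians of -0.59 and -0.61, and of the 7 named as small-subunit proteins 3 fell in each, with medians of -0.64 and -0.56. Of the 17 genes without a protein name 11 fell in light and 8 in darkness, with medians of -0.80 and -0.61. No test between these groups was run.

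Other parts of the translation machinery and of the plastid gave other values. Of 234 features for cytosolic ribosomal proteins, 195 rose and 1 fell in light sucrose total RNA against light control, with a median of 0.76, and 102 rose in darkness with a median of 0.38. Of all features 15.7% rose in light and 15.5% in darkness. In polysomal RNA 210 of the 234 rose in light and 136 in darkness, where 18.5% and 16.3% of all features rose. Their median change in occupancy in the light was 0.27. The 38 plastid ribosomal genes and the cytosolic ones thus had sucrose effects of opposite sign on RNA level, and a positive median change in occupancy in the light.

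Of 19 genes for plastid translation and assembly factors, 8 fell and 2 rose in light total RNA (median -0.43), and 11 fell and 1 rose in darkness (median -0.79). HCF109, a plastid release factor, was lowered most in light (-1.32, limma adjusted p = 1.40e-06), FUG1, the plastid initiation factor IF2, most in darkness (-1.59, 1.99e-08), and EMB3108, a DEAD-box helicase, was raised in light (0.97, 1.78e-05). In polysomal RNA 9 of the 19 fell in light and 15 in darkness, where 12.8% and 15.1% of all features fell. Their median change in occupancy in the light was -0.17, beside 0.34 for the 38 ribosomal protein genes.

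Of 18 features for plastid-encoded ribosomal proteins, 1 passed the sucrose test in total RNA. It was rps18, which fell in light (-0.59, limma adjusted p = 0.0017) and in darkness (-0.39, 0.0266), and the medians were -0.22 and -0.13. Between polysomal and total RNA they were lower in polysomal RNA for 17 genes in dark sucrose, 14 in dark control, 11 in light sucrose and 12 in light control. In the same order 7.56%, 11.1%, 4.36% and 5.75% of all features were lower. Of 27 genes for nuclear-encoded photosystem subunits and the small subunit of Rubisco (RBCS), 14 fell in light total RNA and 23 in darkness, with medians of -0.65 and -0.89, led by RBCS2B in light (-1.85, limma adjusted p = 0.00163) and PSAD-2 in darkness (-2.59, 2.82e-07). In polysomal RNA 2 of the 27 fell in light and 23 in darkness, where 12.8% and 15.1% of all features fell. Their median change in occupancy in the light was 0.28.

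**Figure D5:**
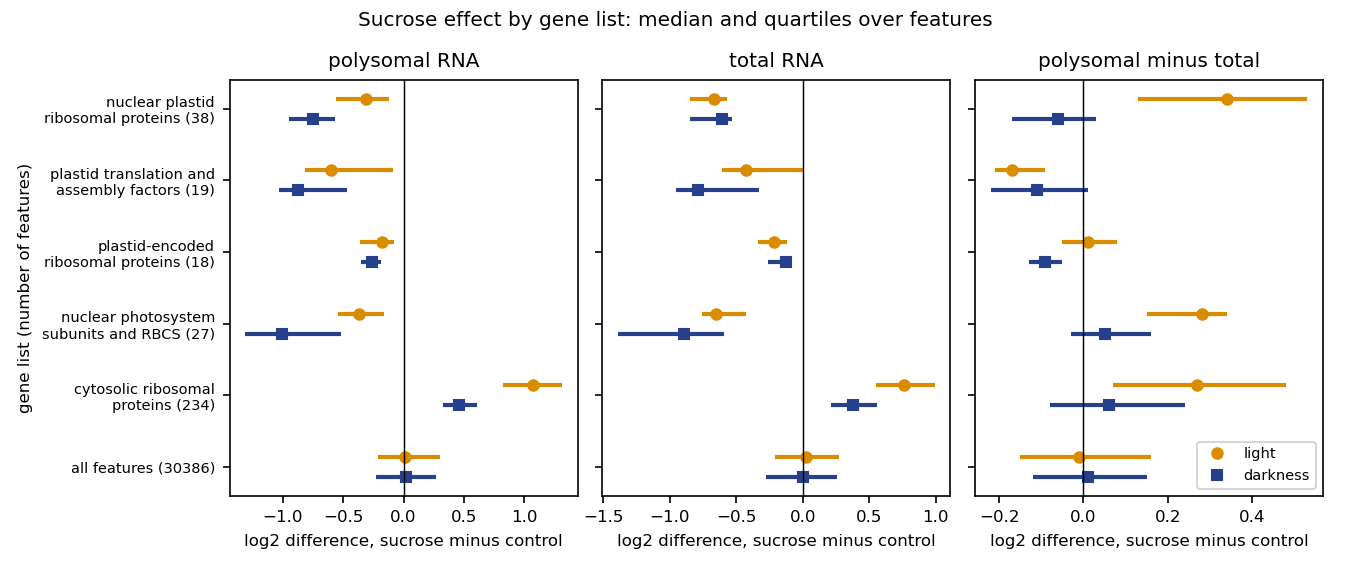
Median (symbol) and quartiles (bar) of the log2 sucrose effect over the features of 5 gene lists and over all features, in polysomal RNA, total RNA and their difference, in light (orange circles) and darkness (blue squares). The 38 plastid ribosomal genes lie left of 0 in both RNAs and the 234 cytosolic ones right of it, while both lie right of 0 for the difference in light, at 0.34 and 0.27.

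A pair of further plastid ribosomal proteins outside the 38, L12-B (AT3G27840) and PSRP3/2 (AT5G15760), passed no sucrose test in total RNA. All group values of L12-B lay between 4.53 and 5.41, below the array medians.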

How the data were processed

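Tiling arrays (AGRONOMICS1) were hybridised with polysomal and total RNA of 12 cultures. Per the methods, the authors normalised the arrays by RMA in aroma.affymetrix, and the deposited values are log2 intensities per gene feature (0.83 to 14.49). Arrays of non-polysomal RNA were not analysed here. Depth does not apply to arrays, and precision is limited by 3 arrays per group. The labels do not say that replicates came from separate experiments, so p-values measure the spread between these cultures.

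A mean for each of the 8 groups was fitted to the 24 arrays with limma 3.58.1 (R 4.3.3; lmFit, eBayes) over all 30386 features, and 19 comparisons were tested with Benjamini-Hochberg adjustment within each (threshold 0.05). Fold changes are 2 to the power of the log2 difference; the SD is that of 3 differences between same-numbered cultures. Tables and plots were made with Python 3.11.15, pandas 2.3.3 and matplotlib 3.10.9. The procedure was tested on simulated data with independent noise on each array. Deviations shared by arrays of a replicate number or a culture were not simulated.

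Arrays of the same number deviated together in the 4 sucrose comparisons and in darkness without sucrose in polysomal RNA (every correlation of deviations over 0.1), and both RNAs of a culture did so (0.211 to 0.598, 12 of 12 pairs), so a fit with the replicate number as a block is given beside these. Other alternatives were the culture as a random block, a fit to the groups compared alone, an intensity trend with robust prior, quantile normalisation, median centring, a filter on low means (all 38 genes and 22789 features kept), adjustment over all comparisons, folds above 1.5 and 2, and leaving out each replicate number.

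Genes were named as the up to 3 largest called falls per comparison, those with an occupancy call (up to 4 per comparison), L12-A, L12-C, GHS1, S1 and PSRP2 to PSRP6; for other lists, the largest change in each direction. The members and lists were chosen with earlier results of these data known, and the cytosolic list follows the study's own family list. Left out were 7 translation factors and PSRP1, whose listed names the reference table did not match, and 6 loci of plastid-encoded proteins (rpl2, rpl23 and rps7) with no feature of their own. Proteins were named from the RefSeq gene table of assembly TAIR10.1.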

Additional observations from a re-analysis of the deposited data

Results flagged for a closer look

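PSRP3/1 (AT1G68590) differed in its sucrose effect between light and darkness. The effect in light minus that in darkness was 1.10 on the log2 scale in total RNA (limma adjusted p = 0.00334) and 1.29 in polysomal RNA (limma adjusted p = 7.47e-04), each with the same sign in 3 of 3 replicate numbers. In total RNA the effect was -0.97 in light and -2.06 in darkness, and in polysomal RNA -0.66 in light and -1.95 in darkness. Without replicate 7 the adjusted p was 0.218 in total RNA and 0.117 in polysomal RNA, and without replicate 8 it was 0.156 and 0.0411. Both differences come from the same cultures and are not independent of each other.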

How the results depend on the processing

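The counts of genes called moved by over 1.5 times under the settings below, and no called gene changed sign under any of them. With the replicate number as a block the counts rose: for sucrose in light to 34 in total and 15 in polysomal RNA (20 and 6 without the block), for sucrose in darkness to 35 in total and 35 in polysomal RNA (18 and 23), for darkness without sucrose to 9 in total and 5 in polysomal RNA (1 and 0), for darkness with sucrose to 16 in total and 34 in polysomal RNA (6 and 17), and for the light dependence of the sucrose effect to 2 and 8 (1 and 1). Correlations of deviations between same-numbered arrays were positive in every comparison. They were not all over 0.1 in darkness with sucrose, nor in darkness without sucrose in total RNA (lowest 0.0147). For polysomal against total RNA the block gave 12 (dark sucrose), 18 (dark control), 22 (light sucrose) and 7 (light control), against 2, 3, 8 and 1, and the culture as a random block gave 12, 15, 24 and 5.

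For darkness without sucrose the count in total RNA was 3 with the culture block, 2 with median centring, 3 with the filter on low means, 2 with adjustment over all comparisons and 0 with the arrays of the groups compared or past 2-fold; in polysomal RNA it was 1 under the culture block, trend, quantile, centring, filter and joint adjustment settings. For the light dependence in polysomal RNA it was 3 under these except quantile normalisation, which gave 2. Arrays of the groups compared gave 11 for sucrose in light and 11 for sucrose in darkness (polysomal), 5 for darkness with sucrose (polysomal), and 0, 1 and 3 for polysomal against total RNA in dark sucrose, dark control and light control. Quantile normalisation gave 1, 1, 3 and 0 for polysomal against total RNA in dark sucrose, dark control, light sucrose and light control, and median centring or a 1.5-fold threshold gave 1 in dark sucrose. Past 2-fold the counts were 1 and 0 for sucrose in light (total, polysomal), 5 and 8 for sucrose in darkness, 2 and 4 for darkness with sucrose, and 1, 1 and 2 for polysomal against total RNA in dark sucrose, dark control and light sucrose. The cause of these differences was not tested.

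Leaving out 1 replicate number gave 2 to 34 (sucrose in light, total), 4 to 37 (sucrose in darkness, total), 2 to 14 (light, polysomal), 6 to 32 (darkness, polysomal), 0 to 3 and 0 to 1 (darkness without sucrose, total and polysomal), 2 to 15 and 2 to 30 (darkness with sucrose), 0 to 3 and 0 to 14 (light dependence), 0 to 3 (occupancy, sucrose in light) and 0 to 19, 0 to 19, 0 to 23 and 0 to 7 (polysomal against total RNA in dark sucrose, dark control, light sucrose and light control). The highest of each range was without replicate 9. The other occupancy changes gave 0 throughout.

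With 3 arrays per group, small differences of single genes are not resolved. Small polysomes alone were analysed, normalised across arrays, so absolute translation is not measured.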
